A study of Arabidopsis thaliana with 12 samples.

Results

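Seedlings of the Arabidopsis mutant rcf1-1 were compared with wild type after 24 h at 4 °C. The comparison uses the arrays labelled rcf1-1 at 24 h (2 arrays) and wild type at 24 h (2 arrays), 4 of the 12 in the series, and 22746 of 22810 probe sets, the 64 control probe sets being set aside. Replicate 1 of rcf1-1 was set against replicate 1 of wild type, and replicate 2 against replicate 2, because the replicate 2 arrays of both genotypes shared a shift in signal described below. The series measured both genotypes after 0, 12 and 24 h in the cold on Affymetrix ATH1 arrays, with 2 biological replicates in each of 6 groups. The question the comparison answers is how gene expression in the chilled mutant departs from that in chilled wild type.

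All seedlings were 14 days old, had grown on plates with 2% sucrose at 21 °C under 16 h of light and 8 h of dark, and were then held at 4 °C for 24 h before RNA was taken from whole seedlings. Wild type was Columbia gl1, a line whose leaves lack trichomes, with a CBF2::LUC transgene that reports the promoter of a cold-induced transcription factor gene with luciferase. The labels give these features for wild type only and name the other genotype as the rcf1-1 mutant, which is known as a mutant found in such a reporter line. The 1 mutant allele has no second allele or rescued line beside it among these arrays. In whole seedlings, fewer cells of a type and less RNA per cell cannot be told apart.

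RCF1 is a DEAD-box RNA helicase of the nucleus with a role in pre-mRNA splicing in the cold. DEAD-box helicases remodel RNA and RNA-protein complexes with energy from ATP, and splicing steps that depend on them can be sensitive to low temperature. The 24 h differences included genes of mitochondrial retrograde signalling, the route by which a disturbed respiratory chain alters nuclear transcription. In plants its known targets include alternative NAD(P)H dehydrogenases, which feed electrons into the chain without pumping protons, and small stress proteins of the organelle. The RCF1 gene itself and the CBF genes are not analysed here, since the probe annotation pairs them with no probe set.

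Values are log2 values, 1 per probe set and array, and a difference of 1 is 2-fold. A probe set was called where limma's fit over all 12 arrays gave an adjusted p under 0.05, and described as altered in both pairs where it was called and differed by 2-fold or more, in the same direction, within replicate 1 and within replicate 2. Differences are rcf1-1 minus wild type, with limma's standard error and n = 2 arrays per genotype. The fit holds no replicate term, so a shift shared by the replicate 2 arrays widens this error even where the pairs match. A group mean below 4.03, the lowest array median, is treated as near the lowest signals, and a difference from it as a lower bound in size. Gene names come from the files' annotation, and 13513 probe sets have exactly 1 gene.

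Replicate arrays of 1 group correlated at r = 0.989 to 0.996 across probe sets at 0 and 12 h, and at 0.955 in wild type and 0.954 in rcf1-1 at 24 h. On the 24 h replicate 2 arrays the actin control read lower at its 5' than at its 3' end by 6.15 in wild type and 5.89 in rcf1-1, against 1.49 to 2.03 on the other 10 arrays. The replicate 2 minus replicate 1 differences of both genotypes correlated at r = 0.69 at 24 h, and at -0.07 at 0 h and -0.06 at 12 h. The genotype differences of the same-numbered arrays correlated at r = 0.69 between replicate 1 and replicate 2, and those of arrays with crossed numbers at -0.02, both across probe sets. The tissue label was checked through markers: the photosynthesis genes PSAE-1, PSAN, PSBW and RCA read between 10.6 and 12.4 on the 4 arrays. The root hair expansin gene EXPA7 read 3.76 to 4.75, and no flower or seed marker was paired with a probe set.

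After 24 h of cold, the mutant differed from wild type in 1706 probe sets, 7.5% of those tested (limma, adjusted p under 0.05). Of these, 753 (3.31%) were higher and 953 (4.19%) lower in rcf1-1. All 1706 had the same sign in both replicate pairs, against 65.9% of all probe sets. The calls rest on the mean of the same pairs, so this agreement largely follows from the selection. Both pairs reached 2-fold in 913 of the 1706, which is 4.01% of all probe sets. These were 435 higher (1.91%) and 478 lower (2.1%). A further 426 reached 2-fold in replicate 1 only, 183 in replicate 2 only, and 184 in neither. The highest called difference was 7.72 and the deepest lower one 2.93 below wild type. The number of calls depends on how the shared shift is treated. It was 5426 with a replicate block for the 24 h arrays, 17 when the 4 arrays were fitted alone without a block, and 2917 without replicate 2 of rcf1-1. The count altered in both pairs was 1075 with the block, the 913 among them, and 17 with the 4 arrays alone. A fit that leaves out 1 of the 4 arrays no longer pairs the replicates, so the shared shift enters its genotype differences. Calls lost in such unpaired fits, given for some genes below, do not measure how far the pairs agree.

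**Figure D1:**
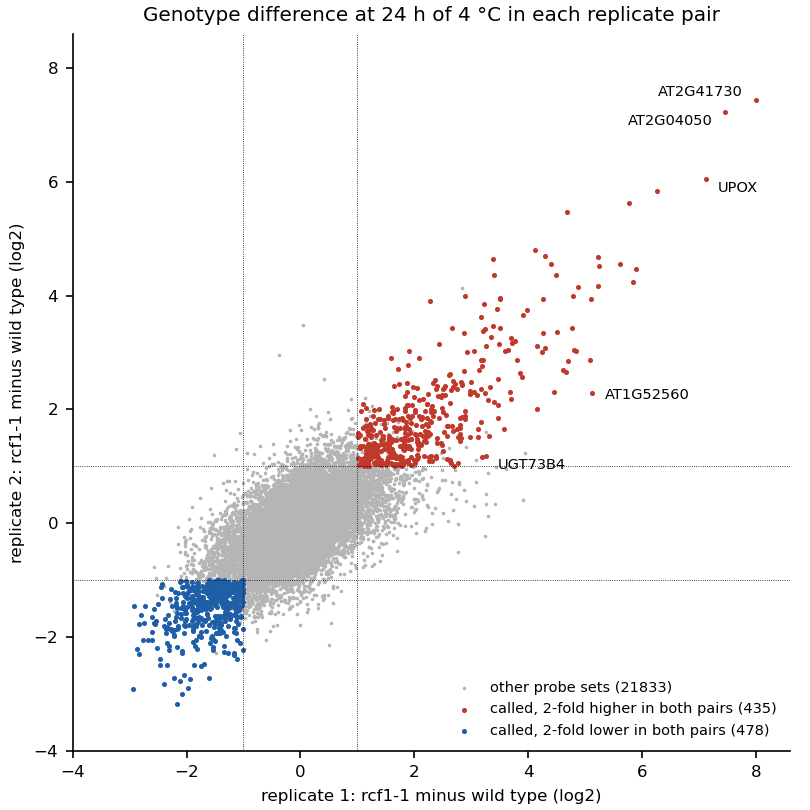
Each point is a probe set, placed by the rcf1-1 minus wild type difference (log2) of the replicate 1 arrays on the x axis and of the replicate 2 arrays on the y axis, with dotted lines at 2-fold. The 435 red and 478 blue probe sets were called and 2-fold in both pairs, and the fitted differences reach 7.72 above 0 and 2.93 below it.

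The higher probe sets covered a wider range than the lower ones. Among the 435 higher probe sets the median difference was 1.78, 167 exceeded 4-fold (2 on the log2 scale) and 67 exceeded 8-fold (3 on the log2 scale). Among the 478 lower ones the median was -1.47, 55 exceeded 4-fold and 0 exceeded 8-fold. Wild type was near the lowest signals for 134 of the higher probe sets (30.8%), whose differences are treated as lower bounds. For the lower ones rcf1-1 was so in 122 (25.5%). Over all probe sets these shares were 48.5% in wild type and 49.4% in rcf1-1. In 319 of the 435 the replicate 1 difference was the larger, with a median of 1.94 against 1.60 in replicate 2. For the lower probe sets the medians were -1.50 and -1.39. At the edge of the 2-fold limit, AT2G47880 lay just inside, at 1.79 in replicate 1 and 1.00 in replicate 2, and AT2G32850 just outside, at -0.998 and -1.13.

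The 3 genes with the highest differences belong to the mitochondrial retrograde list. All 9 of its 9 measured members rose in rcf1-1 and all 9 were altered in both pairs, where 1.91% of all probe sets were. Their median was 4.88 where all probe sets have 0.00. The list names 20 genes, and the other 11, among them the alternative oxidase gene AOX1A, are not analysed here. Of the 9, 3 are differences from a wild type near the lowest signals. The list was drawn up with earlier results of these data known, so its direction is a description.

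AT2G41730, a locus without a symbol, read 4.11 and 4.08 in wild type and 12.11 and 11.52 in rcf1-1, the first value of each being replicate 1. It was higher by 7.72 ± 0.27 (SE; limma adjusted p = 2.84e-07), or 210.3-fold, and its probe set can also bind related transcripts. Both mutant arrays lay far above both wild-type arrays and among the brighter signals of the array.

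AT2G04050, which is listed here with both the mitochondrial and the detoxification genes, read 3.16 on each wild-type array and 10.62 and 10.38 in rcf1-1. The difference of 7.34 ± 0.28 (limma adjusted p = 2.87e-07) is at least 162-fold. UPOX (AT2G21640), known as a mitochondrial gene raised by oxidative stress, read 3.44 and 4.13 in wild type and 10.56 and 10.17 in rcf1-1. Its difference was 6.58 ± 0.27 (limma adjusted p = 4.29e-07), at least 95.8-fold. For both genes the replicates of a genotype lay far closer together than the genotypes.

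NDB4, an alternative NAD(P)H dehydrogenase of the mitochondrial inner membrane, read 3.01 and 3.23 in wild type and 8.25 and 7.75 in rcf1-1. It was higher by at least 4.88 ± 0.25 (limma adjusted p = 3.07e-06). AT2G32020 read 5.28 and 5.18 in wild type and 10.90 and 9.74 in rcf1-1, a difference of 5.09 ± 0.34. HSP23.5 (AT5G51440), a small heat shock protein of mitochondria, read 5.12 and 3.46 in wild type and 9.25 and 8.26 in rcf1-1. Its replicates moved together between arrays in both genotypes, and the difference was 4.46 ± 0.48 (limma adjusted p = 0.00053).

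AT5G09570 read 3.85 and 4.43 in wild type and 8.12 and 8.38 in rcf1-1, a difference of 4.11 ± 0.29. AT1G05060 read 4.59 and 5.04 against 8.28 and 7.23, a difference of 2.94 ± 0.32. GSTU25, a tau class glutathione transferase, read 8.23 and 7.11 in wild type and 10.24 and 9.06 in rcf1-1. Its difference of 1.98 ± 0.45 (limma adjusted p = 0.023) was about equal in both pairs, at 2.01 and 1.95. It was not called in the unpaired fits without replicate 2 of wild type (1.42) or replicate 1 of rcf1-1 (1.39).

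**Figure D2:**
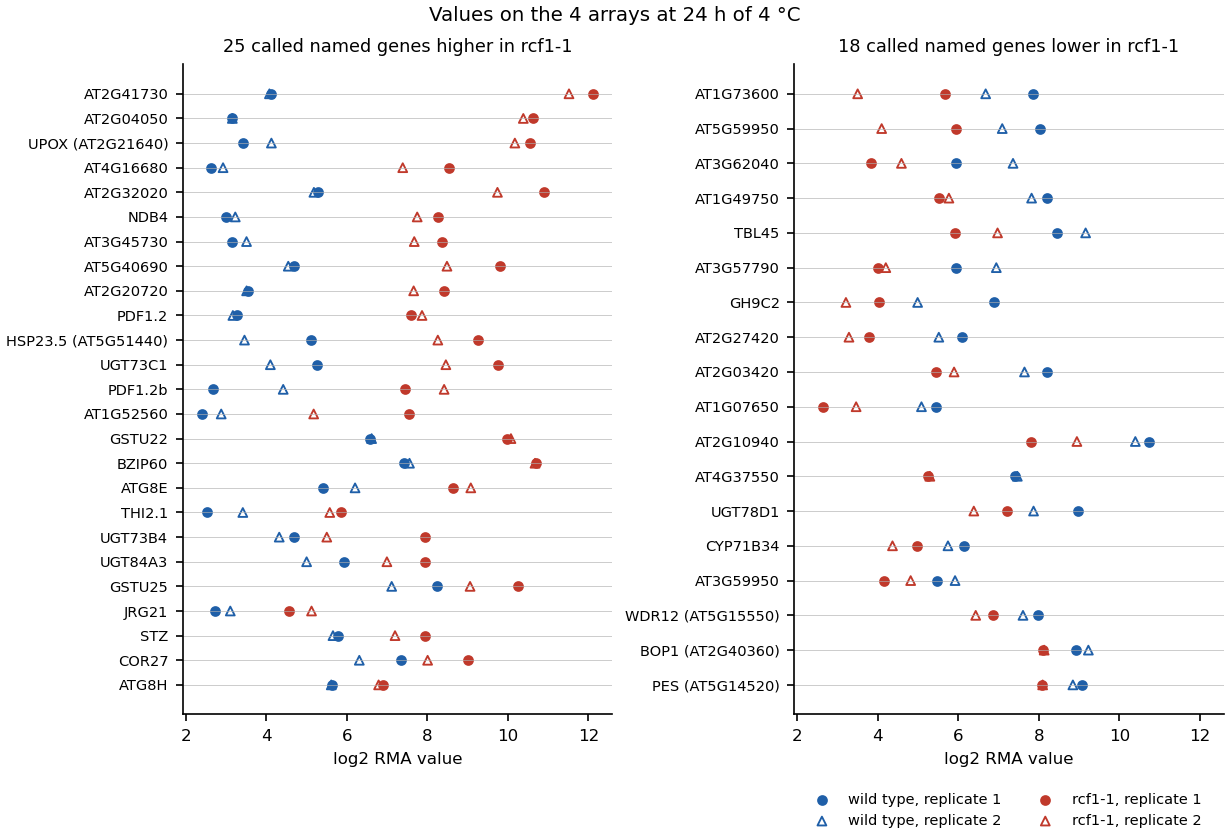
Log2 values on each of the 4 arrays (wild type blue, rcf1-1 red; circles replicate 1, triangles replicate 2) for the named genes that were called, 25 higher and 18 lower in rcf1-1. In several genes, such as HSP23.5, UGT84A3 and GSTU25, both genotypes shift the same way between replicates.

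Other genes with differences of the same order carry no symbol in the annotation. AT4G16680 read 2.63 and 2.93 in wild type and 8.53 and 7.39 in rcf1-1, higher by at least 5.18 ± 0.34 (limma adjusted p = 1.82e-05). AT3G45730 was higher by at least 4.69 ± 0.30 and AT5G40690 by 4.52 ± 0.37. AT2G20720 read 3.55 and 3.51 in wild type and 8.42 and 7.66 in rcf1-1, higher by at least 4.51 ± 0.26. It stands out in its course, since the genotypes differed by 0.13 at 12 h and 0.15 at 0 h. Both genotypes were near the lowest signals at those times, where a difference cannot be measured. The 12 h means were 3.35 in wild type and 3.47 in rcf1-1.

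Genes of jasmonate and ethylene defence formed another high group. Of 6 measured members, among 34 listed, 4 were called higher and altered in both pairs, and 0 were called lower. The list median was 2.33, and 3.31% of all probe sets were called higher. PDF1.2, an antimicrobial plant defensin induced by jasmonate with ethylene, read 3.28 and 3.17 in wild type and 7.58 and 7.87 in rcf1-1. It was higher by at least 4.50 ± 0.49 (limma adjusted p = 0.00053), and PDF1.2b by at least 4.39 ± 0.70 (limma adjusted p = 0.0044). The PDF1.2b probe set can also bind related defensin transcripts, so these 2 may not be separate signals.

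THI2.1, a thionin, read 2.54 and 3.42 in wild type and 5.85 and 5.58 in rcf1-1, higher by at least 2.73 ± 0.44. JRG21, a jasmonate-regulated gene, read 2.72 and 3.11 against 4.56 and 5.13, higher by at least 1.93 ± 0.30. The other defensin-like members, PDF1.4 and LCR67, were near the lowest signals in both genotypes, at 2.52 to 3.37. JAL23, a jacalin-related lectin gene picked out after its values were seen, read 2.64 and 2.63 in wild type and 6.93 and 5.70 in rcf1-1.

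The transcription factor gene BZIP60, which encodes a regulator of the unfolded protein response activated by splicing of its mRNA, was among the most even differences. It read 7.43 and 7.56 in wild type and 10.69 and 10.67 in rcf1-1, higher by 3.19 ± 0.21 (limma adjusted p = 1.88e-05), or 9.10-fold. The other 5 measured genes of the unfolded protein response, whose list names 30 genes, were not called. Their differences ran from -0.67 for AT5G07340 to 0.87 for BZIP28, which encodes the other membrane-bound regulator of that response. The calreticulin gene CRT1b differed by -0.53 and the endoplasmic reticulum co-chaperone gene ATERDJ3B by -0.25. The list median was -0.14. BZIP60 was called higher where the endoplasmic reticulum chaperone genes measured with it were not called.

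Heat shock and chaperone genes differed in how far the replicates matched. Of 63 listed, 10 were measured and 2 were called, both higher, namely HSP23.5 and AT1G52560, where 3.31% of all probe sets were called higher. The list median of 1.17 came from 1.53 in replicate 1 and 0.31 in replicate 2. Of the 10 genes, 4 had means near the lowest signals in both genotypes. AT1G52560 read 2.42 and 2.88 in wild type and 7.54 and 5.18 in rcf1-1, higher by at least 3.71 ± 0.55, from 5.12 in replicate 1 and 2.30 in replicate 2. ATHSP22.0, a small heat shock protein of the endoplasmic reticulum, read 5.30 on the replicate 1 array of rcf1-1 and 2.71 to 2.77 on the other 3. AT5G37670 gave 5.24 on that array and 2.70 to 2.97 on the other 3. ATHSP22.0 and AT5G37670 were high on 1 mutant array only and were not called (limma adjusted p = 0.21 and 0.17). HSP23.5 had the larger difference in replicate 2, and so did the uncalled AT2G20560, at 1.24 in replicate 1 and 1.72 in replicate 2, and Fes1A, at 0.65 and 1.13.

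Autophagy genes moved unequally. ATG8 proteins are ubiquitin-like proteins that are attached to the growing autophagosome membrane. Of 41 listed autophagy genes 13 were measured, of which 3 were called higher and 1 lower, with a median of 0.51. Over all probe sets, 3.31% were called higher and 4.19% lower. ATG8E read 5.41 and 6.21 in wild type and 8.62 and 9.08 in rcf1-1, higher by 3.04 ± 0.28 (limma adjusted p = 0.00019), or 8.23-fold. ATG8H read 5.63 and 5.62 against 6.90 and 6.79, higher by 1.22 ± 0.21.

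ATG8G was called at 0.89 ± 0.23, below 2-fold in replicate 2. ATG8B (1.13), ATG8D (0.78), APG8A (0.57), ATG8C (0.34), ATG8F (0.32) and APG8H (0.11) were not called. APG8H (AT3G15580) is a different gene from ATG8H. Of the 13, 10 were above 0 in both pairs. AT3G59950, listed here with the autophagy genes, was lower by 1.20 ± 0.27, with -1.31 in replicate 1 and -1.10 in replicate 2. The call was lost in the unpaired fits without replicate 2 of wild type (-0.98) or replicate 1 of rcf1-1 (-0.88).

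Detoxification genes showed a few high members in a family that otherwise did not pass the test. Of 15 measured glutathione transferase and detoxification genes, among 48 listed, 3 were called, all higher. The list median was 0.30, and 3.31% of all probe sets were called higher. Of the 15 genes, 5 were near the lowest signals in both genotypes, where a difference cannot be measured. GSTU22 read 6.59 and 6.62 in wild type and 9.97 and 10.08 in rcf1-1, higher by 3.42 ± 0.24 (limma adjusted p = 2.14e-05). Genes with neighbouring locus numbers, GSTU20, GSTU21 and GSTU23, differed by -0.24, 0.19 and 0.35 and were not called. AER, which encodes an alkenal reductase that removes reactive aldehydes, was at 1.03 ± 0.28 (adjusted p = 0.053).

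Among 51 measured UDP-glycosyltransferase genes, 3 were called higher and 3 lower, or 6 of 51 where 7.5% of all probe sets were called, with a median of 0.07. These enzymes attach sugars to small molecules. In both genotypes 21 of the 51 genes were near the lowest signals, where a difference cannot be measured. UGT73C1 read 5.25 and 4.10 in wild type and 9.75 and 8.46 in rcf1-1, higher by 4.43 ± 0.44 (limma adjusted p = 0.00031). UGT84A3, which acts on hydroxycinnamates, read 5.93 and 5.0 against 7.94 and 7.0, higher by 2.00 ± 0.38. In both genotypes replicate 2 read about 1 lower than replicate 1, and the pair differences were 2.01 and 1.99.

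UGT73B4 was higher by 2.22 ± 0.57, from 3.26 in replicate 1 and 1.18 in replicate 2, and was no longer called without either wild-type array (adjusted p = 0.057 and 0.10). Without replicate 1 of rcf1-1 its difference was 1.00, and without replicate 2 it was 3.44. UGT78D1, a flavonol rhamnosyltransferase, was the lowest of the family. It read 8.97 and 7.87 in wild type and 7.21 and 6.39 in rcf1-1, a difference of -1.62 ± 0.34 (limma adjusted p = 0.017). The pair differences were -1.76 and -1.48. It missed the call in the unpaired fit without replicate 2 of rcf1-1 (-1.21). The other 5 measured flavonoid genes were not called, DFR among them at -0.65. Of 24 measured cytochrome P450 genes, among 258 listed, 15 were near the lowest signals in both genotypes, where a difference cannot be measured. In this list 1 gene was called, lower, where 4.19% of all probe sets were. This was CYP71B34, at -1.26 ± 0.29, with -1.15 in replicate 1 and -1.38 in replicate 2. It was not called in the unpaired fits without replicate 1 of wild type or replicate 2 of rcf1-1.

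**Figure D3:**
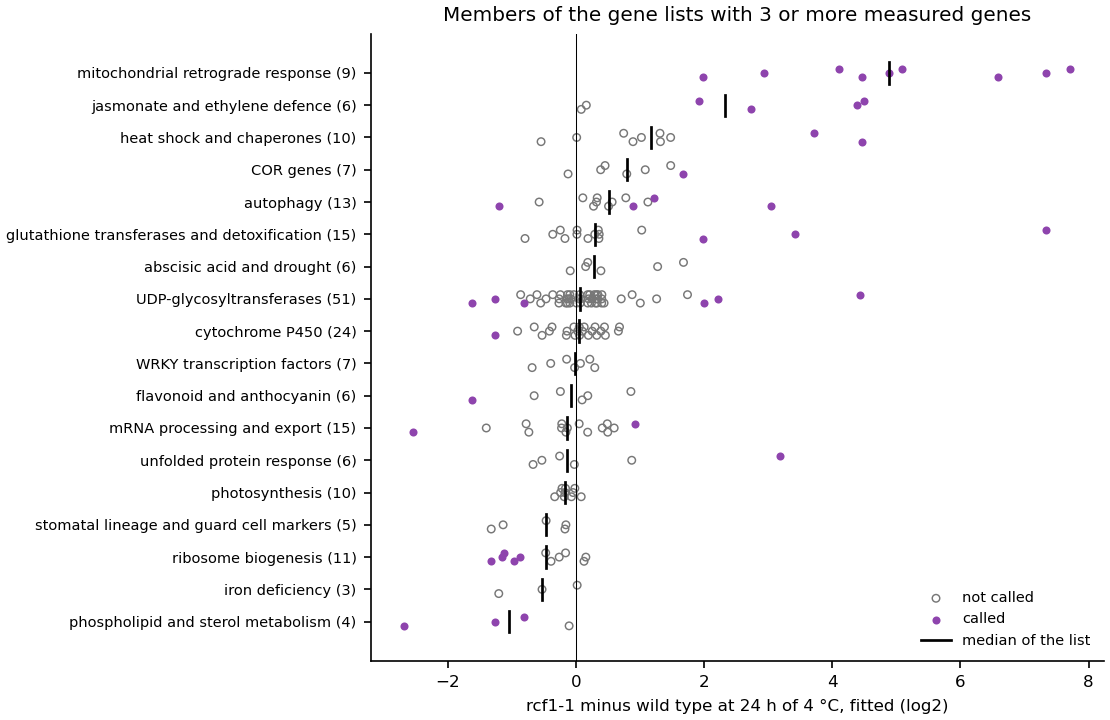
Fitted rcf1-1 minus wild type differences (log2, x axis) of every measured gene in the lists with 3 or more measured members (number in brackets), with called genes filled and the list median as a bar. The mitochondrial retrograde list, with a median of 4.88, lies to the right of 0 in all 9 members, the jasmonate and ethylene list has a median of 2.33, and the 10 photosynthesis genes lie closest together around 0.

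Cold-regulated genes of the CBF pathway were strongly expressed in both genotypes. Of 7 measured COR genes, among 20 listed, 1 was called, higher, where 3.31% of all probe sets were. In both pairs 6 were above 0, and the median was 0.80. COR27, a cold gene also under clock control, read 7.36 and 6.31 in wild type and 9.01 and 8.01 in rcf1-1, higher by 1.67 ± 0.37 (limma adjusted p = 0.022). The pair differences were 1.65 and 1.70. It was not called in the unpaired fits without replicate 2 of wild type (1.15) or replicate 1 of rcf1-1 (1.17).

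The dehydrin genes LTI30 and COR47 differed by 1.08 ± 0.30 (adjusted p = 0.055) and 0.46 ± 0.20 (adjusted p = 0.22). They read 11.19 to 13.04 and 11.99 to 12.88, where the array maxima run from 12.77 to 13.38. Whether bright signals limited these differences was not tested. COR47 was called higher with a replicate block for the 24 h arrays (limma adjusted p = 0.0048). Its pair differences were 0.34 and 0.58, and the unpaired fits without 1 array gave 0.18 to 0.73. COR15A, which encodes a stabilising protein of the chloroplast stroma, read 12.67 and 11.13 in wild type, and rcf1-1 differed from it by -0.11 in replicate 1 and -0.13 in replicate 2. In both genotypes replicate 2 read lower than replicate 1, and the fitted difference was -0.12 ± 0.51 (limma adjusted p = 0.93), with that spread in its standard error.

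STZ (ZAT10), a zinc finger repressor of transcription that responds to cold and other stresses, was the only measured gene of the CBF regulator list. It read 5.77 and 5.66 in wild type and 7.93 and 7.20 in rcf1-1, higher by 1.85 ± 0.29 (limma adjusted p = 0.0043). Of 6 measured abscisic acid and drought genes limma called 0, and 2 had an unadjusted p under 0.05. Among them LEA4-5, a late embryogenesis abundant protein gene, read 7.36 and 5.30 in wild type and 9.08 and 6.94 in rcf1-1, a difference of 1.68 ± 0.72 (adjusted p = 0.21), with similar pair differences of 1.72 and 1.64.

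Some genes of ribosome biogenesis were lower. Of 11 measured, among 26 listed, 5 were called lower and 0 higher, where 4.19% and 3.31% of all probe sets were. The median was -0.47 where all probe sets have 0.00. The other 6 were not called. Only WDR12 was altered 2-fold in both. PES, BOP1 and WDR12 form the PeBoW complex, which is needed for maturation of the large ribosomal subunit. PES (AT5G14520) read 9.06 and 8.85 in wild type and 8.08 and 8.10 in rcf1-1, lower by 0.87 ± 0.20. BOP1 (AT2G40360) read 8.93 and 9.23 against 8.11 and 8.14, lower by 0.96 ± 0.18. WDR12 (AT5G15550) read 7.98 and 7.61 against 6.86 and 6.44, lower by 1.15 ± 0.23 (limma adjusted p = 0.012).

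PES differed by -0.99 in replicate 1 and -0.75 in replicate 2. It was not called in the unpaired fits without replicate 1 of wild type or replicate 1 of rcf1-1. NRPA1 and NRPA2, the large subunits of RNA polymerase I, which transcribes ribosomal RNA genes, were called lower by 1.11 ± 0.22 and 1.33 ± 0.32. NRPA2 read 7.45 and 6.90 in wild type and 5.72 and 5.97 in rcf1-1. The uncalled members included PRH75, a nucleolar DEAD-box helicase gene, at 0.13, and DIM1A, an rRNA dimethylase gene, at 0.16. At 0 h all 11 members were above 0, with a median of 0.63, and limma called 0 of them.

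The measured genes of mRNA processing and export, 15 of 90 listed, did not move as a group. Of these 15, 1 was called higher and 1 lower, with a median of -0.13. Over all probe sets 7.5% were called. AT5G59950, listed here among the export genes, read 8.03 and 7.09 in wild type and 5.95 and 4.10 in rcf1-1, lower by 2.54 ± 0.49 (limma adjusted p = 0.011), with -2.08 in replicate 1 and -2.99 in replicate 2. LSM6B, a subunit of the Lsm ring that binds U6 RNA or decaying mRNA, was higher by 0.92 ± 0.23, below 2-fold in each pair. The uncalled AT1G66260, also listed with the export genes, was at -1.40 ± 0.47 (adjusted p = 0.11). Splicing factor genes such as PRP39 (0.19), ATU2AF35A (0.49) and U2AF35B (0.50) were not called. AT3G09620, listed because it encodes a helicase related to RCF1, read 2.81 to 2.93 on all 4 arrays, near the lowest signals, where a difference cannot be measured.

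Phospholipid and sterol genes were few but low. Of 4 measured, among 40 listed, 3 were called lower, where 4.19% of all probe sets were. The median was -1.03. AT1G73600, listed here with phospholipid genes, was the lowest of the 229 lower genes with a single gene name. It read 7.85 and 6.68 in wild type and 5.68 and 3.51 in rcf1-1, a difference of -2.67 ± 0.59 (limma adjusted p = 0.022). The pair differences were -2.17 and -3.18. It was not called in the unpaired fit without replicate 1 of wild type. The sterol glucosyltransferase genes UGT80B1 and SGT were lower by 1.26 ± 0.26 and 0.81 ± 0.21. PMEAMT, which encodes a phosphoethanolamine methyltransferase, was not called, with 0.55 in replicate 1 and -0.76 in replicate 2.

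The 12 lowest named genes included 2 with a symbol, both with products of the cell wall. TBL45, of a family tied to acetylation of wall polysaccharides, read 8.45 and 9.16 in wild type and 5.93 and 6.98 in rcf1-1, lower by 2.35 ± 0.39. GH9C2, an endoglucanase family member, read 6.88 and 4.99 against 4.03 and 3.21, lower by at least 2.31 ± 0.51. The pair differences were -2.84 and -1.78. It was not called in the unpaired fit without replicate 2 of rcf1-1. The receptor kinase gene AT1G07650 read 5.45 and 5.09 in wild type and 2.65 and 3.47 in rcf1-1, lower by at least 2.21 ± 0.29 (limma adjusted p = 0.0014).

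AT4G37550 read 7.42 and 7.47 in wild type and 5.25 and 5.30 in rcf1-1. Its difference of -2.17 ± 0.19 (limma adjusted p = 0.00015) was the same in both pairs. AT1G49750 read 8.22 and 7.82 against 5.53 and 5.77, lower by 2.37 ± 0.26. AT3G62040, AT3G57790, AT2G03420 and AT2G10940 were lower by 2.18 to 2.44, and AT2G27420, near the lowest signals in rcf1-1, by at least 2.27 ± 0.28. None of these 7 loci has a symbol in the annotation.

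Photosynthesis genes gave 0 calls in limma among 10 measured of 74 listed, with 0 at an unadjusted p under 0.05. Their differences lay between -0.33 for LHCB4.2 and 0.09 for LHCB4.1. Stomatal lineage and guard cell markers were below 0 in all 5 measured members, of which limma called 0 and 2 had an unadjusted p under 0.05. STOMAGEN, a peptide that promotes stomatal formation, read 7.21 and 8.42 in wild type and 5.62 and 7.38 in rcf1-1, at -1.32 ± 0.54 (adjusted p = 0.19). SPCH, which starts the stomatal lineage, was at -1.13 ± 0.39 (adjusted p = 0.11). The part of a changed cell makeup in the differences above was not tested. The trichome gene TRY and the root gene EXPA7 differed by -0.23 and -0.11.

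Limma called 0 members among 3 iron deficiency, 7 WRKY, 2 senescence and 1 each of clock, NAC and proteasome genes. Near the lowest signals in both genotypes were 4 of the 7 WRKY genes, 1 iron deficiency gene and 1 senescence gene. At an unadjusted p under 0.05 were 1 WRKY gene and the NAC gene. BHLH101, an iron deficiency regulator at 2.52 to 2.96 on the 4 arrays, had differed by 3.16 at 0 h. The clock gene GI was at 0.34 ± 0.30. None of the listed MYB, ERF, salicylic acid or ribosomal protein genes was paired with a probe set.

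Whether the differences were already there at 12 h was read from the separate 12 h arrays, where 307 probe sets (1.35%) were called. The fit gives a gene the same standard error at each time, which includes the larger replicate spread of the 24 h arrays. A lack of a call at 12 h or 0 h therefore does not show that a difference was absent. Of the 435 higher probe sets, 371 were also above 0 at 12 h, with a median of 0.57, and 70 were called higher then. At 0 h, 302 of the 435 were above 0, with a median of 0.20, and 13 were called higher. Of the 478 lower ones, 432 were below 0 at 12 h, with a median of -0.59, and 61 were called lower then. At 0 h, 345 of the 478 were below 0, with a median of -0.21, and 0 were called lower. Over all 22746 probe sets, 11078 were above 0 at 12 h, where 123 were called higher and 184 lower. At 0 h, 10468 of all were above 0 and 21 were called higher. None of the 913 was called in the opposite direction at 12 h. Of the 12 highest named genes, 10 were called higher at 12 h, and of the 12 lowest, 1 was called lower at 12 h, AT1G07650 at -2.43 ± 0.29.

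The difference between the genotype effects at 24 h and at 12 h was itself tested, and 58 probe sets (0.255%) were called, 48 with a higher and 10 with a lower value at 24 h. Some of the 58 were 12 h differences that had shrunk by 24 h. WNK9 went from -1.64 at 12 h to 0.46 at 24 h, and AT5G15950 from 2.29 to -0.27. The 24 h difference is a term of this test and also defines the 913, which are 4.01% of all probe sets. An overlap with them therefore partly follows from the selection. Of the 58, 45 belong to the 913. The count rose to between 107 and 428 when 1 of the 4 arrays was left out and to 1530 with a replicate block. In the mitochondrial list, 4 of 9 genes were called for this test. UPOX had differed by 3.81 at 0 h and 4.15 at 12 h and reached 6.58 at 24 h. AT2G32020 stood at 0.11, 4.85 and 5.09, and NDB4 at 0.27, 2.28 and 4.88. The defensin gene PDF1.2 stood at 4.39, 5.19 and 4.50, so that its 24 h minus 12 h value was -0.69 ± 0.69 (limma adjusted p = 0.85). The ribosome biogenesis genes called at 24 h had values above 0 at 0 h that were not called. For BOP1, among them, the 24 h minus 12 h value was -1.12 ± 0.26 (limma adjusted p = 0.12), which did not pass the test.

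**Figure D4:**
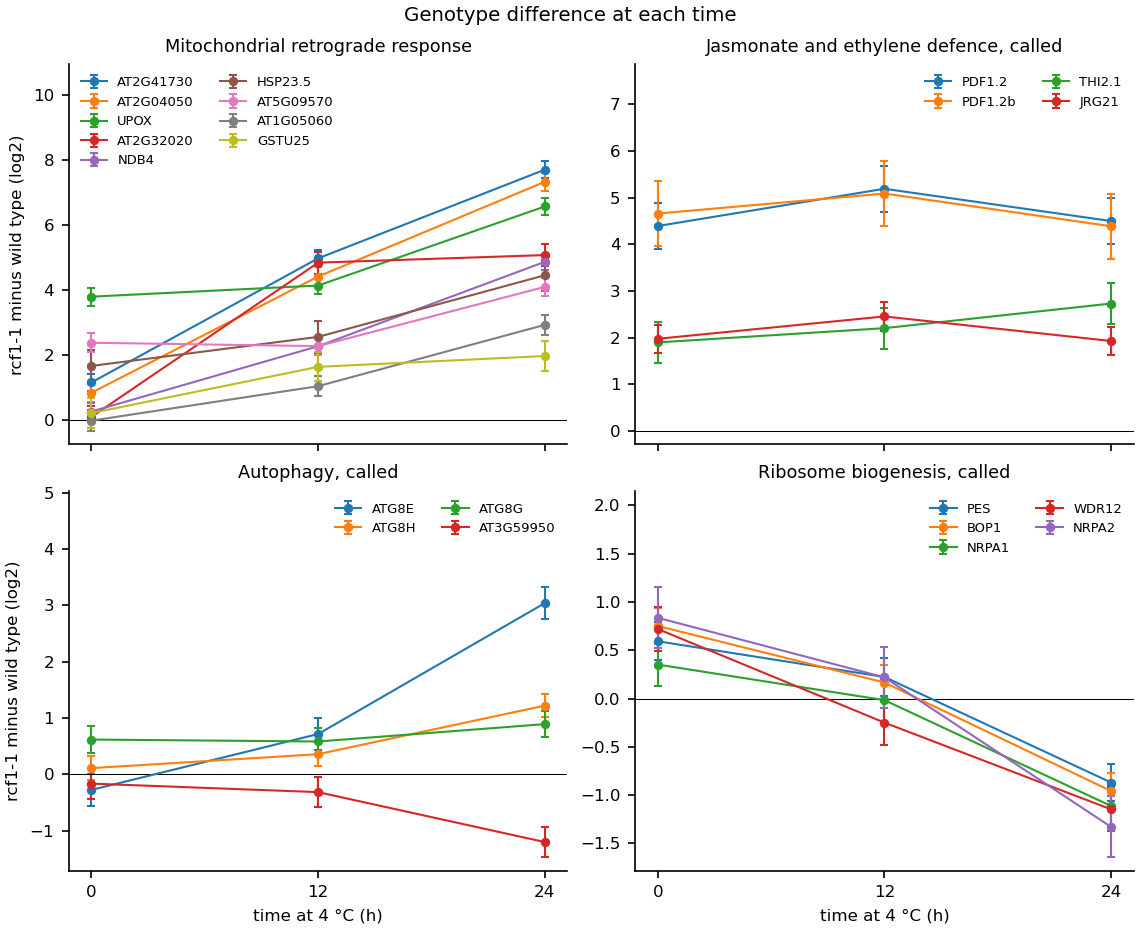
Rcf1-1 minus wild type difference (log2, y axis; bars are limma standard errors) at 0, 12 and 24 h of 4 °C (x axis) for members of 4 lists, the mitochondrial list in full and the others by the members called at 24 h. UPOX and the defensins are above 0 at every time, NDB4 and ATG8E part mainly after 0 h, and the ribosome biogenesis genes, whose 0 h and 12 h values were not called, are below 0 at 24 h.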

How the data were processed

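Total RNA of seedlings was hybridised to 12 Affymetrix ATH1 arrays, in 6 groups of 2 given by the labels. The deposited values are log2 values made by the authors with RMA, per the submitters' processing notes, and the version is not given in the sources used here. The values were used as deposited. With no scanner files, background and saturation per probe were not examined, and the number of arrays limits the precision.

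Names came from the annotation of the array and a gene table (assembly TAIR10.1), which gave 1 gene for 13513 of 22746 probe sets, several for 503 and none for 8730. A listed gene with several probe sets was represented by the one of highest mean.

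Group means were fitted on all 12 arrays with limma 3.58.1 in R 4.3.3 (lmFit, eBayes with a trend, 6 residual and 4.70 prior degrees of freedom), which pools the spread over groups. Two-sided p-values were adjusted by Benjamini-Hochberg over 22746 probe sets. The labels call the replicates biological, without saying how they were grown apart. The differences of same-numbered arrays describe agreement and were not tested alone. The shared numbers were checked through the replicate differences, which correlated between genotypes at 24 h only (r = 0.69, against -0.07 and -0.06).

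Named genes were the 12 largest differences in each direction among genes altered in both pairs, up to 4 such members per list and direction, and 19 genes in any case, of which 10 were paired with a probe set. The members, lists and rules were chosen with earlier results of these data known. Lists were trimmed of wrongly matched names and described by counts and medians without a set test. Genes outside the rule are said to be picked out after their values were seen, or stand as uncalled list members. The alternatives were a fit without trend, a filter at the 30th percentile, a second quantile normalization, replicate blocks, array weights, the 4 arrays alone, a minimum change, a stricter threshold, single pairs and leaving out each array. The fit was tested on simulated data. A planned search of promoter motifs was not run.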

Additional observations from a re-analysis of the deposited data

Results flagged for a closer look

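For 8 named genes the genotype difference at 24 h was itself different from that at 12 h (limma, adjusted p under 0.05). In 7 it was higher at 24 h. The named genes were mainly picked by their 24 h difference, which is a term of this value. Their count and direction therefore partly follow from the selection. AT2G20720 changed most, by 4.38 ± 0.36 (SE; adjusted p = 0.0013), from 0.13 at 12 h to 4.51 at 24 h. AT2G04050 changed by 2.92 ± 0.40, AT2G41730 by 2.73 ± 0.38, NDB4 by 2.60 ± 0.35 and AT2G21640 (UPOX) by 2.43 ± 0.39 on top of a 12 h difference. AT3G45730 changed by 2.56 ± 0.43 and ATG8E, the autophagosome membrane protein gene, by 2.33 ± 0.40 (adjusted p = 0.048).

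AT2G20720, AT2G04050, NDB4, UPOX and AT3G45730 had wild-type means near the lowest signals at 24 h, so that their 24 h differences are lower bounds. For AT2G20720 both genotypes were also near the lowest signals at 12 h, where a difference cannot be measured.

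AT2G27420 went the other way, by -3.59 ± 0.40 (adjusted p = 0.0065). It was at 1.32 ± 0.28 at 12 h (adjusted p = 0.052), with means of 5.03 in wild type and 6.36 in rcf1-1. At 24 h it stood at -2.27, a lower bound in size, with means of 5.81 and 3.54. The 12 h and 24 h arrays are separate seedlings, and the 24 h replicate 2 arrays carry the stronger 3' signal given with the arrays, whose part in these values was not tested.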

How the results depend on the processing

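The calls turn on how the shared shift of the 24 h arrays is treated. From 1706, they moved to 5426 with a replicate block for the 24 h arrays, 4532 with a block at every time and 3371 with the 4 arrays alone and the block. They moved to 4875 with pair 1 alone and 3912 with pair 2 alone, where single arrays are assumed to vary like the other groups. They fell to 17 with the 4 arrays alone and no block, 268 with array quality weights, 111 with a minimum change of 2-fold and 626 at an adjusted p under 0.01. Leaving out 1 array gave 1768 to 2917. The probe sets altered in both pairs were 1075 to 1078 under the 3 block fits, all 913 among them. They were 265 with weights, 17 with the 4 arrays alone, 111 with the minimum change, 571 at the stricter threshold, 1706 at any size and 294 at 3-fold.

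For the 24 h minus 12 h test the 58 calls became 128 without the trend, 103 after a second quantile normalization, 1530 and 886 with the replicate blocks, 31 with weights, 5 with the minimum change, 15 at the stricter threshold, 2024 with pair 1 alone and 1453 with pair 2 alone, and 107 to 428 without 1 array. The 43 called named genes became 22 with weights, 11 with the 4 arrays alone and 17 with the minimum change, 39 to 40 without 1 array, and stayed 43 in every block fit. Of 735 values of single named genes, 619 kept direction and call, 109 lost the call, 5 gained one, each of them COR47, and 2 reversed: COR15A, at 0.65 without replicate 1 of wild type and 0.66 without replicate 2 of rcf1-1, against -0.90 without replicate 1 of rcf1-1. Fits without 1 array do not pair the replicates, so the shared shift enters these COR15A differences. Within the same-numbered arrays, COR15A differed by -0.11 in replicate 1 and -0.13 in replicate 2. The replicate numbers pair the arrays at 24 h but not at 0 or 12 h, so the block counts describe the 24 h shift only.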

Other observations

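Genes with a symbol outside the named ones were looked through after their values were seen. Of the 913 probe sets altered in both pairs, 30 with a symbol were higher and 30 lower. Among the higher were CYTC-2, a cytochrome c gene, at 1.31 ± 0.21, and BIGYIN, which takes part in the division of mitochondria and peroxisomes, at 2.04 ± 0.21. SUFE2, of iron-sulfur cluster assembly, was higher by at least 1.98 ± 0.30, from values of 2.95 and 3.33 in wild type and 4.85 and 5.41 in rcf1-1. The methionine sulfoxide reductase gene MSRB5 was at 1.23 ± 0.24 and the SUMO ligase gene SIZ1 at 1.41 ± 0.30 or more. Wild type was near the lowest signals for SUFE2 and SIZ1.

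Among the lower were 2 of the 3 measured chloroplast chaperonin 60 beta genes, Cpn60beta4 at -1.41 ± 0.37 and Cpn60beta2 at -1.28 ± 0.29, and LPA19, a photosystem II assembly gene, at -2.11 ± 0.29. YAB3, a leaf polarity gene, was at -1.59 ± 0.33, and GIS, a zinc finger gene of trichome initiation, at -1.96 ± 0.28. The membrane lipid genes CCT2 and AAPT2 went in opposite directions, at 1.26 ± 0.29 and -1.70 ± 0.21.

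Cell wall families were mixed. Of 9 measured xyloglucan endotransglucosylase genes, XTH18 was called higher (1.34) and XTH16 (-1.55, near the lowest signals in rcf1-1) and XTH32 (-1.38) lower, with a family median of -0.06. Of 22 TBL genes 3 were called lower, of 17 expansin genes 1, and of 15 GH9 genes 1, where 4.19% of all probe sets were. Limma called 0 of 7 cellulose synthase family genes.

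Being next to a set gene on a chromosome went with little difference in the share altered. The measured neighbours of a set gene were in the set in 4.34% of cases, against 3.94% of all genes in such pairs, a share near the background.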
